A study of Mus musculus with 7 samples.

Results

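Genomic imprinting silences the maternal or the paternal copy of a small set of genes, and many of these genes act on growth before birth. Paternally expressed members such as *Igf2*, *Dlk1*, *Peg3*, *Mest* and *Plagl1* mostly promote or accompany fetal growth, whereas maternally expressed members such as *H19*, *Igf2r*, *Cdkn1c* and, in most tissues, *Grb10* mostly restrain it. Fetal skeletal muscle is known for high expression of this group, which falls after birth. The 10 genes described here (*Igf2*, *Igf2r*, *Grb10*, *Dlk1*, *Cdkn1c*, *Plagl1*, *Peg3*, *Mest*, *H19* and *Meg3*) were selected by symbol from 31531 genes, and all 10 were found.

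The RNA came from muscle fibers of the epaxial muscles of mouse fetuses at embryonic day 17.5, with 4 WT and 3 dyW libraries. The dyW allele disrupts *Lama2*, which encodes the α2 chain of laminins 211 and 221, and homozygous fetuses are a model of LAMA2-congenital muscular dystrophy. Both groups came from crosses of heterozygous C57BL/6 animals, and the values are totals per gene, which do not separate the parental copies. Fibers were released by enzymatic digestion and retained on a strainer, and each library is named here by its group and number.

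The libraries differed in depth and in cell content in ways that touch every gene below. Reads counted on genes ranged from 470804 to 2220813 in the WT libraries and from 3663905 to 18297106 in the dyW libraries, so each dyW library was deeper than each WT library. Even so, fewer genes had a read in the dyW libraries (14209 to 19360) than in the WT libraries (25530 to 29594). The part of this in genes at 0 in dyW was not tested. The targeted gene, *Lama2*, had 90.6, 111, 105 and 107 normalized counts in WT1 to WT4 and 4.29, 6.07 and 139.7 in dyW1, dyW2 and the library labelled dyW3. The last value goes against its genotype label at the level of RNA. Summed normalized counts of 18 myofiber genes ranged from 3385 to 97960 in WT and from 79.8 to 12680 in dyW, and the lowest sum was that of dyW1, where 6 of the 18 genes were at 0. WT1 held 468557 normalized counts of 10 cartilage genes, whereas the other WT libraries held between 294 and 26400 and the dyW libraries between 140 and 1934. Summed counts of 8 erythroid genes were 96.0 in WT1 and 14.8 in dyW1, against 28863 to 291263 in the other libraries. Summed counts of 16 fibroblast genes were 6536 to 16468 in WT and 27067 to 37667 in dyW, with no overlap. Abundant collagens carried much of this sum (*Col1a1* and *Col1a2* had 8467 and 12046 normalized counts in dyW1). Of the 16 genes 3 had every dyW library above every WT library, against 3.28% of all tested genes (those averaging 5 or more normalized counts), and 2 the reverse, against 31.5%. Among genes with a mean of at least 50, as 13 of the 16 were, these shares were 12.2% and 6.81%. By limma 1 was called lower (*Pi16*) and 0 higher at an adjusted p under 0.01 and a log2 fold change beyond 1.5, against 18.7% and 0.0659%. With a mean of at least 50 these shares were 2.45% and 0.278%. At an adjusted p under 0.05 with the same fold, 3 were higher and 1 lower, against 1% and 29.6% of all tested genes. In dyW1 4 of the 16 genes were at 0, and in the library labelled dyW3 2 were. In such bulk RNA, fewer cells of a type and less RNA per cell cannot be told apart.

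**Figure D1:**
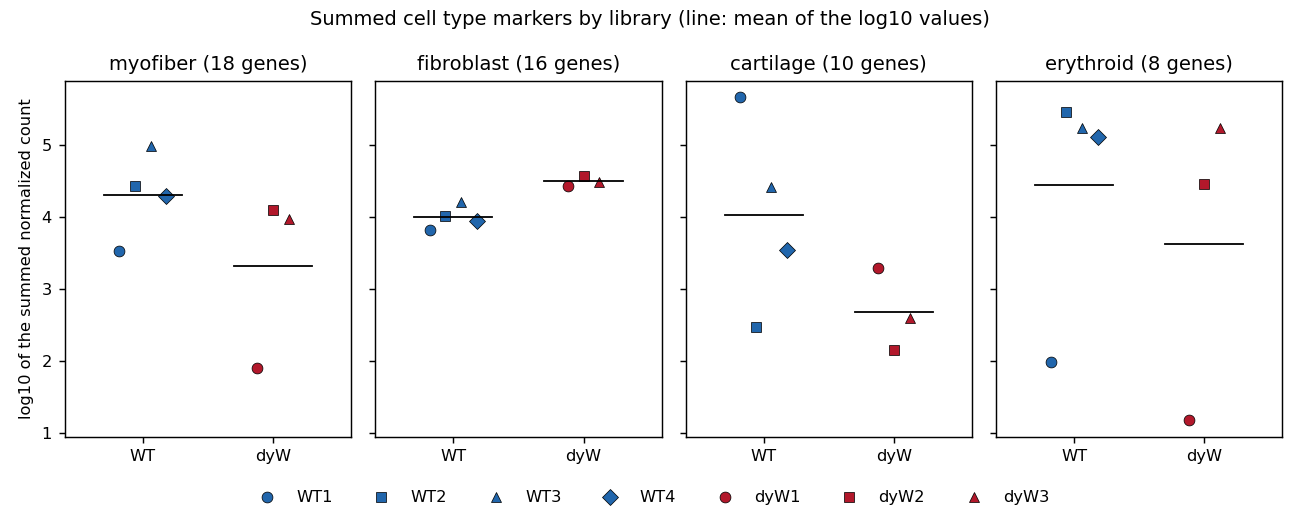
Summed normalized counts (log10, y axis) of myofiber, fibroblast, cartilage and erythroid marker genes in each of the 4 WT (blue) and 3 dyW (red) libraries. Each point is a library and the line is the mean of the log10 values. In the myofiber and erythroid panels dyW1 is lowest, and in the erythroid panel WT1 is also far below the remaining libraries. WT1 is highest in cartilage, and the groups do not overlap in the fibroblast panel.

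To ask whether the growth genes differed between genotypes, limma was run on the 25791 genes whose normalized count averaged 5 or more, and a gene was called at an adjusted p under 0.01 with a log2 fold change beyond 1.5 in either direction. None of the 10 genes was called lower, where 18.7% of all tested genes were, and none was called higher, where 0.0659% were. Since most calls fall on low genes, the share among the 6111 genes with a mean of at least 50, to which all 10 belong, is the nearer background, at 2.45% lower and 0.278% higher. The background itself rested on single libraries, since the 4830 genes called lower became 0 without WT2, without WT4 or without dyW2 and 6698 without the library labelled dyW3. At an unadjusted p under 0.05 the count was 1 of 10 lower (*Mest*) and 0 higher, against 41.5% and 2.81% of all tested genes. By voom on the recovered reads 0 were lower and 3 higher (*Plagl1*, *Grb10* and *Igf2r*) at that p, against 31.5% and 5.14% of all tested genes and 3.63% and 19.6% of those with a mean of at least 50. *Mest* was also the sole member with every WT library above every dyW library, a pattern found in 31.5% of tested genes and 6.81% of those with a mean of at least 50. No member had every dyW library above every WT library, as 3.28% of tested genes did and 12.2% of those with a mean of at least 50. The median log2 fold change (dyW minus WT) of the 10 genes was -0.17, beside -1.99 for all tested genes and 0.20 for genes with a mean of at least 50. Of the 10 genes, 5 had values below 0 and 5 above.

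**Figure D2:**
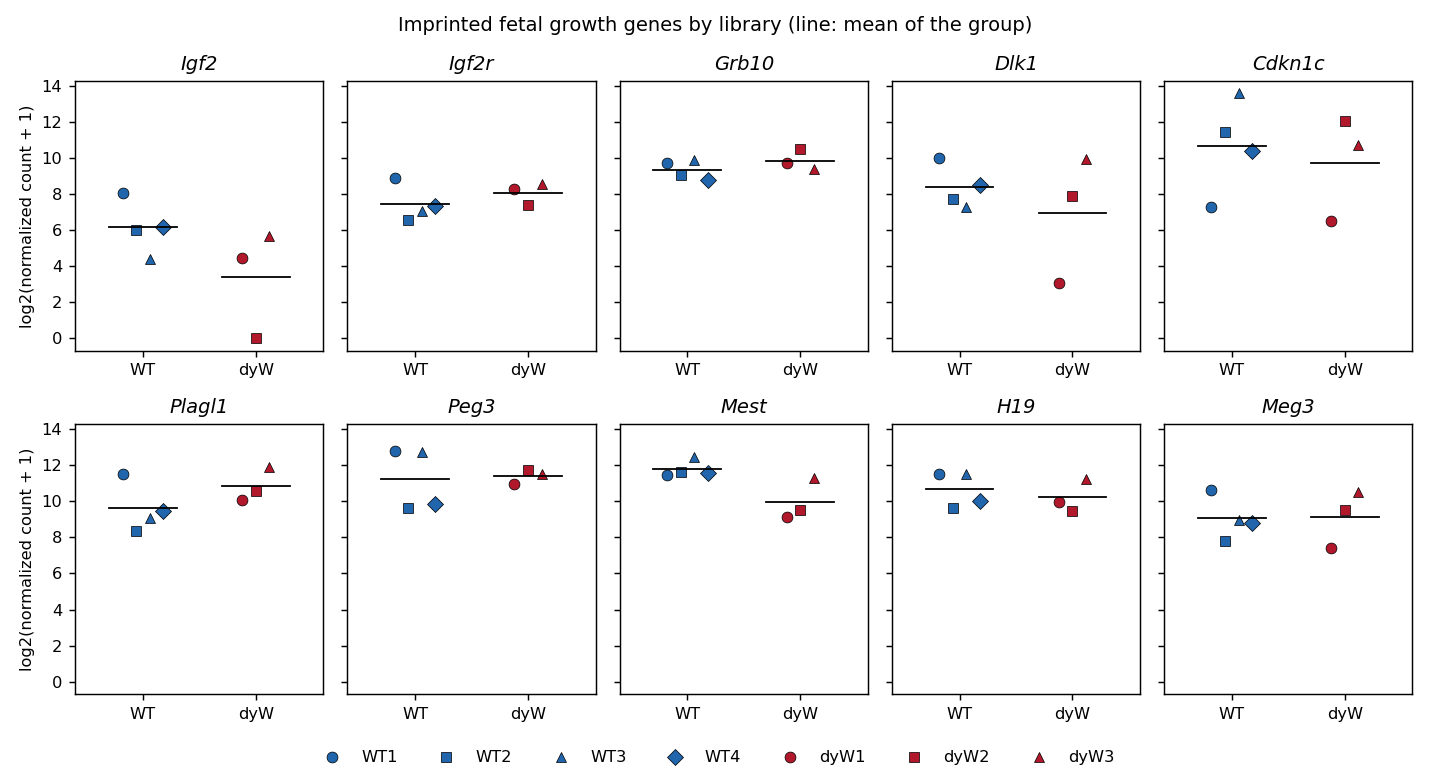
Levels of the 10 genes as log2(normalized count + 1) (y axis) in the 4 WT (blue) and 3 dyW (red) libraries. Each point is a library and the line is the group mean; the groups separate in the *Mest* panel alone, *Igf2* lies at 0 in dyW2, and *Dlk1*, *Igf2* and *Cdkn1c* spread most within the dyW group.

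Among the genes of insulin-like growth factor signalling, *Igf2* encodes the main fetal growth factor of the family. Its normalized counts were 266.6, 64.7, 20.5 and 72.4 in WT1 to WT4 and 21.2, 0 and 51.3 in dyW1, dyW2 and the library labelled dyW3. The groups overlapped, since WT3 lay below dyW1 and below the library labelled dyW3. The WT values rest on 50, 24, 10 and 23 reads, so they carry a large counting error, whereas dyW2 had 0 reads, which allows up to 3 reads or 0.379 normalized counts. The WT mean was 106 ± 109 (SD, n = 4), and the dyW mean was 24.2 ± 25.8 (SD, n = 3). The log2 fold change was -2.79 ± 1.40 (SE), and the adjusted p from limma was 0.158. It was -1.09 without dyW2 and -3.94 without the library labelled dyW3, where its adjusted p was 0.0448.

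*Igf2* lies on mouse chromosome 7 at 142204503 to 142220694 on the minus strand (GRCm39). In the GENCODE annotation 58.4% of its exon bases and 79.3% of its coding bases are also exons of *Gm49394*, a protein-coding model on the same strand that was not analysed here. How reads in those bases were assigned is not given in the sources used here, so the level of *Igf2* is uncertain. Its rank within a library ran from the 27.5th to the 98.4th percentile of all genes, while *H19*, its neighbour, stayed at or above the 98.9th.

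*Igf2r* encodes the receptor that binds IGF2 and carries it to lysosomes for degradation. It had 480, 94.4, 133 and 160 normalized counts in WT1 to WT4 and 307, 165 and 385 in the 3 dyW libraries. WT1 was above all others, and the remaining WT libraries lay below the dyW libraries. Its log2 fold change was 0.61 ± 0.67 (SE), with an adjusted p of 0.519 by limma. *Grb10*, an adaptor that binds insulin and IGF1 receptors and restrains their signal, had 853, 545, 935 and 437 normalized counts in WT and 836, 1452 and 672 in dyW. The groups interleaved, with dyW2 highest, and the log2 fold change was 0.50 ± 0.48 (SE) with an adjusted p of 0.454. By voom the log2 fold change of *Grb10* was 1.82 with an adjusted p of 0.0296, and that of *Igf2r* was 2.07 with an adjusted p of 0.0957, both on a scale where genes with a mean of at least 50 had a median of 1.42.

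Ratios between 2 genes of a library were taken on (normalized count + 1), so they depend little on the scaling where both genes are well counted, and on the pseudocount where a gene is at or near 0. The log2 ratio of *Igf2* to *Igf2r*, ligand to clearance receptor, was -0.85, -0.54, -2.64 and -1.14 in WT1 to WT4 and -3.79, -7.38 and -2.88 in dyW1, dyW2 and the library labelled dyW3. Each dyW ratio was below each WT ratio, by a narrow margin between the library labelled dyW3 and WT3. The WT mean was -1.29 ± 0.93 (SD, n = 4), and the dyW mean was -4.68 ± 2.38 (SD, n = 3), a difference of -3.39. The exact two-sided permutation test over the 35 splits gave p = 0.0571, the smallest it can give with 4 against 3 libraries, and 0.171 after Benjamini-Hochberg adjustment over the 3 ratios tested. Without dyW2, where *Igf2* was at 0, the difference was -2.05, and over all libraries it was -4.51 with a pseudocount of 0.1 and -2.24 with 10. The ratio carries the uncertainty of the *Igf2* counts.

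*Dlk1* and *Meg3* are neighbours on chromosome 12 that are expressed from opposite parental copies. *Dlk1* (109418749 to 109429262, plus strand) encodes a Notch-like ligand with membrane-bound and soluble forms that is made by fetal myoblasts and adipocyte precursors. Its normalized counts were 1013, 216, 156 and 368 in WT1 to WT4 and 7.31, 235 and 974 in dyW1, dyW2 and the library labelled dyW3. The dyW libraries spanned 133-fold, from below all WT libraries to near the highest WT library. The log2 fold change of -1.44 ± 1.46 (SE) had an adjusted p of 0.476 by limma. Without dyW1, the library with the lowest summed myofiber genes, it was 0.51, on the other side of 0.

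*Meg3* (109506877 to 109538165, plus strand) is a long noncoding RNA of the same cluster. It had 1594, 221, 509 and 444 normalized counts in WT and 173, 733 and 1451 in dyW. As for *Dlk1*, WT1 was highest among the WT libraries, dyW1 was lowest among all libraries, and the library labelled dyW3 was highest among the dyW libraries. Its log2 fold change was 0.10 ± 0.86 (SE), with an adjusted p of 0.941 by limma. It was 0.96 without dyW1, -0.58 without the library labelled dyW3, -0.32 without WT2 and 1.48 (adjusted p = 0.110) without WT1 and dyW1. The log2 ratio of *Meg3* to *Dlk1* was 0.65, 0.04, 1.70 and 0.27 in WT and 4.39, 1.64 and 0.57 in dyW. The groups overlapped, with means of 0.66 ± 0.74 (SD, n = 4) and 2.20 ± 1.97 (SD, n = 3), a difference of 1.54 that had p = 0.286 by the exact permutation test, also after adjustment. Without dyW1 the difference was 0.44.

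*Cdkn1c* (chromosome 7, 143012069 to 143014806, minus strand) encodes p57, an inhibitor of cyclin-dependent kinases that accompanies cell cycle exit in muscle differentiation. It had 155, 2786, 12404 and 1344 normalized counts in WT1 to WT4 and 89.1, 4267 and 1694 in the 3 dyW libraries. The lowest values of both groups were in WT1 and dyW1, the libraries with the lowest summed myofiber genes of their groups. WT3, highest in that sum, was highest in *Cdkn1c*. Abundant genes carried much of the sum (*Acta1* had 52989 normalized counts in WT3). Not all myofiber genes followed it, since *Ryr1* and *Myh1* were lowest among the WT libraries in WT3, at 77.9 and 14.4. The WT range of *Cdkn1c*, 80.2-fold, put its spread above 98.6% of genes with a mean of at least 50. The log2 fold change was -0.92 ± 1.61 (SE) with an adjusted p of 0.691 by limma, and it was 0.71 without dyW1 and 0.05 without WT3. Of its exon bases, 29.0% also belong to *Gm44732* on the opposite strand, and the strand setting of the counting is not given in the sources used here.

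*Plagl1* (chromosome 10, 12936248 to 13007438, plus strand) encodes a zinc finger transcription factor that is known to bind within imprinted loci. It had 2921, 329, 544 and 699 normalized counts in WT1 to WT4 and 1077, 1551 and 3872 in the 3 dyW libraries. Each dyW library was above WT2, WT3 and WT4, and WT1 lay within the dyW range. The log2 fold change was 1.26 ± 0.77 (SE) with an adjusted p of 0.242 by limma. It was 1.90 with an adjusted p of 0.0550 without WT1, 2.29 with 0.0307 without WT1 and dyW1, and 0.73 with 0.520 without the library labelled dyW3. By voom it was 2.67 with an adjusted p of 0.0152, and with equal totals 2.41 with 0.0786 by limma, both on scales where the median of genes with a mean of at least 50 was itself above 1. WT1 was also the library with by far the most cartilage transcripts, and the part of those cells in its *Plagl1* level was not tested.

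*Peg3* (chromosome 7, 6706882 to 6733468, minus strand) encodes a large zinc finger protein. Its normalized counts were 7010, 796, 6921 and 909 in WT1 to WT4 and 2034, 3397 and 2964 in the 3 dyW libraries. The WT libraries formed a high and a low pair on either side of all dyW libraries. For this gene the log2 fold change was 0.17 ± 0.85 (SE), with an adjusted p of 0.895 by limma, and it was -0.37 without WT2, -0.30 without WT4 and 0.68 without WT1. The SD of log2 values was 1.75 in WT and 0.38 in dyW, where the medians over genes with a mean of at least 50 were 0.66 and 1.24. The difference in spread was not tested.

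*Mest* encodes a membrane protein with a hydrolase fold whose paternal copy is expressed widely in fetal mesoderm. It had 2820, 3204, 5684 and 3068 normalized counts in WT1 to WT4 and 561, 725 and 2551 in dyW1, dyW2 and the library labelled dyW3. All WT libraries were above all dyW libraries, although the library labelled dyW3, which also had *Lama2* at the WT level, came close to WT1. The WT mean was 3694 ± 1336 (SD, n = 4), and the dyW mean was 1279 ± 1104 (SD, n = 3). The log2 fold change was -1.81 ± 0.56 (SE), with an adjusted p from limma of 0.0387, above the 0.01 needed for a call, and 29.6% of all tested genes were lower at an adjusted p under 0.05 with the same fold (5.09% of genes with a mean of at least 50). The exact two-sided permutation test of this gene gave 0.0571, the smallest p possible.

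The size of the *Mest* difference varied with the libraries used, and none of the 5 scalings gave a call. By limma its log2 fold change was -0.66 with an adjusted p of 0.455 once all libraries had an equal total, -1.76 with 0.307 after quantile normalization and -2.23 with 0.0123 under recomputed size factors. By voom it was -0.76 with 0.391. The scalings shifted the other genes as well, and relative to the median of genes with a mean of at least 50 *Mest* was -2.01 with the deposited size factors, -1.98 with equal totals and -2.18 by voom. Without the library labelled dyW3 the log2 fold change was -2.47 with an adjusted p of 0.0086, and *Mest* was called lower, together with 25.8% of all tested genes and 6.09% of those with a mean of at least 50, while 0 members and 0.0809% of all tested genes were called higher. Without dyW1 it was -1.38 with an adjusted p of 0.132, and without both WT1 and dyW1 it was -1.49 with an adjusted p of 0.131. Leaving out WT1, WT2, WT3, WT4 or dyW2 singly gave adjusted p from 0.0687 to 0.133 by limma, and a replicate block gave 0.0614. The summed fibroblast genes, not all of which were higher in dyW, were 6536 to 16468 in WT and 27067 to 37667 in dyW, and the summed myofiber genes overlapped, at 3385 to 97960 in WT and 79.8 to 12680 in dyW. Their part in the *Mest* difference was not tested. In addition, 47.7% of the *Mest* exon bases overlap *Copg2* on the opposite strand. *Copg2* had 37.8 to 89.0 normalized counts in WT and 79.2 to 248 in dyW, and the part of the shared bases in the *Mest* values was not tested.

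*Mest* spans 30723546 to 30752058 on the plus strand of chromosome 6 and has more than 1 annotated start, whose reads add up in the single value per gene. RefSeq (GRCm38.p6) gives 3 starts, the last of them 3 bases after the second, and the 250 bases upstream of the first and the second are shown, since the deposited values cannot tell which start was in use. The first lies at chr6:30733256-30733505 and the second at chr6:30737800-30738049, both on the plus strand, with 7 and 14 CG dinucleotides. Capitals mark CAGCTG, a palindromic E-box bound by myogenic factors, which was searched on both strands and is present upstream of 13.0% of 32851 mouse starts. It occurs 135 bases before the first start and not in the window of the second. Of the 15 starts of the 8 members that matched a RefSeq promoter, this was the sole window with CAGCTG. *H19* and *Cdkn1c* had no matching entry. A match describes the letters and is not evidence of a bound site.
*Mest* first start: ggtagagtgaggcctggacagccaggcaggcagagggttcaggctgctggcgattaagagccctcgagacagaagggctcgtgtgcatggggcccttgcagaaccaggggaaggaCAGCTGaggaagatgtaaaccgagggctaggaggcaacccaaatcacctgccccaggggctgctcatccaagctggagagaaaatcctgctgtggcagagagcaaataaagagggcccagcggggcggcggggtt
*Mest* second start: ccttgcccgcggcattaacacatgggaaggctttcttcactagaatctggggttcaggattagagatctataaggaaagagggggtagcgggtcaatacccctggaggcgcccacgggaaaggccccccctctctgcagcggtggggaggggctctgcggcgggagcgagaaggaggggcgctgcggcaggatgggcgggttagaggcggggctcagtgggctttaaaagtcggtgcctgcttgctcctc

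*H19* (chromosome 7, 142129262 to 142133957, minus strand) is a maternally expressed noncoding RNA that shares enhancers with *Igf2* and is abundant in fetal muscle. It had 2900, 793, 2962 and 1035 normalized counts in WT1 to WT4 and 1011, 707 and 2436 in the 3 dyW libraries. The ranges lay nearly on top of each other, and dyW2 was lowest. Its log2 fold change was -0.44 ± 0.64 (SE), with an adjusted p of 0.631 by limma, and it lay between -0.95 without the library labelled dyW3 and -0.05 without dyW2. The log2 ratio of *H19* to *Igf2* was 3.44, 3.59, 7.11 and 3.82 in WT and 5.51, 9.47 and 5.54 in dyW. All dyW libraries were above WT1, WT2 and WT4, but WT3 was above dyW1 and the library labelled dyW3. The means were 4.49 ± 1.75 (SD, n = 4) and 6.84 ± 2.28 (SD, n = 3), a difference of 2.35 with p = 0.171 by the exact permutation test and 0.257 after adjustment. Without dyW2, where *Igf2* was at 0, it was 1.04, and over all libraries it was 3.46 with a pseudocount of 0.1 and 1.23 with 10.

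*Mest*, *H19* and *Igf2* host microRNAs in their transcripts, and their mature sequences are given to show what the loci encode, since the assay did not measure mature microRNAs. Sequences are from RefSeq (GRCm38.p6), with the seed, bases 2 to 8, in capitals. *Mir335* lies in *Mest*, *Mir675* in the first exon of *H19* and *Mir483* in *Igf2*. No seed is shared between these 6 arms.
miR-335-5p: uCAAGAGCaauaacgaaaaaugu
miR-335-3p: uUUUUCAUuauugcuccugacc
miR-675-5p: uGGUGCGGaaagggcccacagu
miR-675-3p: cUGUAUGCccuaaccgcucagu
miR-483-5p: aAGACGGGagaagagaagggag
miR-483-3p: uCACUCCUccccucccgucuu

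**Figure D3:**
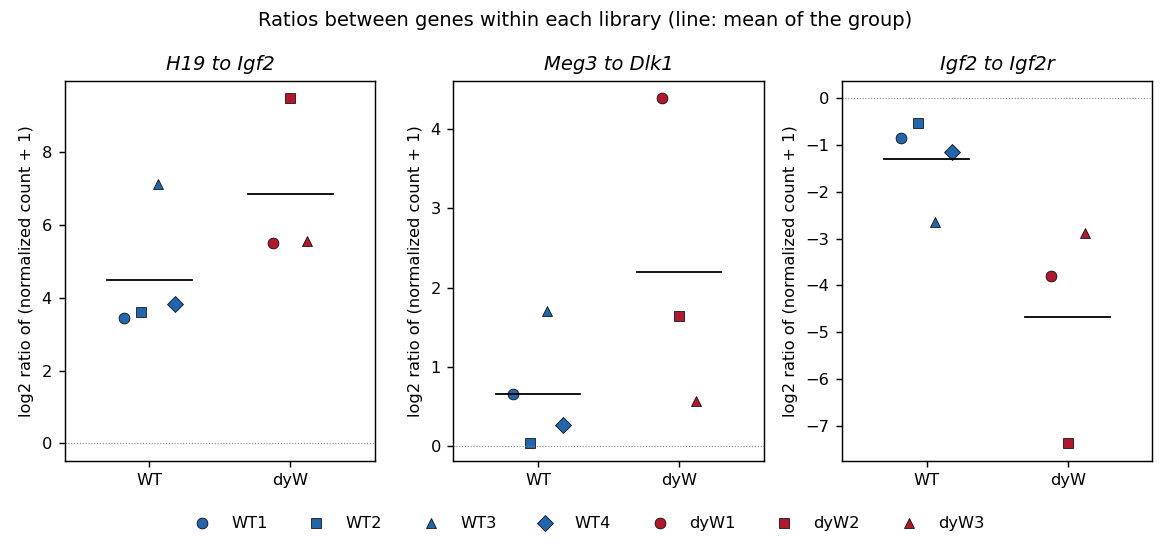
Log2 ratios of (normalized count + 1) between gene pairs within each of the 4 WT (blue) and 3 dyW (red) libraries, with the group mean as a line. The *Igf2* to *Igf2r* ratio lies between -2.64 and -0.54 in WT and between -7.38 and -2.88 in dyW, and the other pairs overlap between groups.

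The direction of several genes followed the scaling of the libraries, so the fold changes were set beside the median of genes with a mean of at least 50. That median was 0.20 with the deposited size factors, 1.33 with libraries scaled to the same total, 0.08 after quantile normalization, -0.22 with size factors recomputed over those genes and 1.42 in voom. As fitted, 4 of the 10 genes (*Igf2*, *Dlk1* and *Mest* below 0, *Plagl1* above) had the same sign in all 5 scalings, and *Igf2r*, *Grb10*, *Cdkn1c*, *Peg3*, *H19* and *Meg3* changed sign. Relative to the median of its scaling, *Mest* ranged from -2.18 to -1.84, *Dlk1* from -1.87 to -1.64, *H19* from -0.66 to -0.58 and *Plagl1* from 1.05 to 1.25. *Igf2* ranged more widely, from -5.32 to -2.02, and *Cdkn1c* from -1.63 to -0.76. The signs of these 6 genes relative to the median were thus the same in the 5 scalings, whereas those of *Igf2r*, *Grb10*, *Peg3* and *Meg3* were not. The deposited size factors, equal totals and recomputed size factors differ only by 1 factor per library. That shift mostly cancels once the median is subtracted, so agreement among these scalings is no separate check of the signs.

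**Figure D4:**
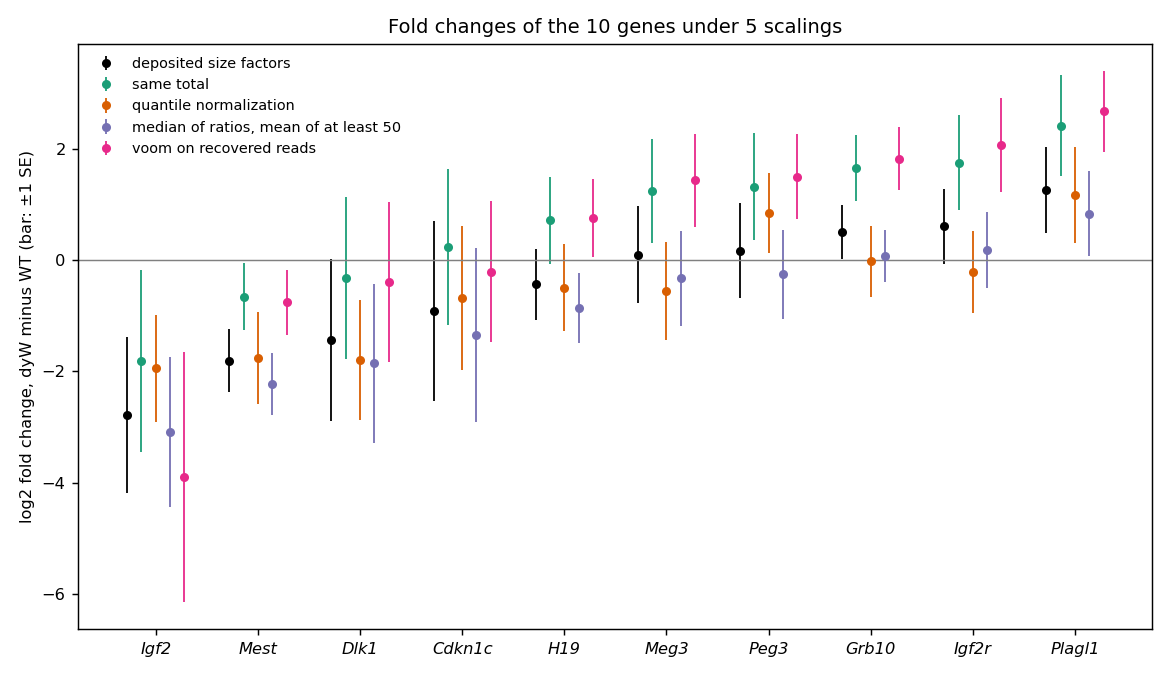
Log2 fold changes (dyW minus WT, y axis) of the 10 genes under 5 scalings of the libraries, with bars of ±1 SE. *Igf2*, *Mest* and *Dlk1* stay below 0 and *Plagl1* above 0 in all 5, and the other 6 genes cross 0.

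Per kilobase of exon, *Cdkn1c* and *H19* stood first and second by the group median in both genotypes, and *Igf2r* and *Igf2* last. The median normalized count per kilobase was 958 for *Cdkn1c*, 691 for *H19*, 389 for *Mest*, 287 for *Peg3*, 72.6 for *Plagl1*, 68.2 for *Grb10*, 48.4 for *Dlk1*, 24.7 for *Meg3*, 15.7 for *Igf2r* and 11.1 for *Igf2* in WT. Ranges of neighbours in this order overlapped throughout in WT. In dyW the medians were 786 for *Cdkn1c*, 355 for *H19*, 217 for *Peg3*, 181 for *Plagl1*, 89.9 for *Mest*, 81.5 for *Grb10*, 38.9 for *Dlk1*, 38.0 for *Meg3*, 32.7 for *Igf2r* and 3.45 for *Igf2*. *Mest* moved from the third to the fifth place, and the *Igf2r* and *Igf2* ranges were the sole neighbours that did not overlap.

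Together the 10 genes took 0.797% (95% Wilson interval 0.772 to 0.823) of reads in WT1, 0.227% (0.220 to 0.235) in WT2, 0.664% (0.654 to 0.675) in WT3 and 0.154% (0.148 to 0.160) in WT4. In dyW1 they took 0.437% (0.434 to 0.440), in dyW2 0.572% (0.568 to 0.575) and in the library labelled dyW3 0.953% (0.943 to 0.963). These intervals cover counting error only, and the shares overlapped between groups. The leading gene also differed, with *Peg3* highest by normalized count in WT1 and dyW1, *Mest* in WT2 and WT4, *Cdkn1c* in WT3 and dyW2, and *Plagl1* in the library labelled dyW3.

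The likeness of profiles was measured as the root mean square difference of centred log2 values over the 7 libraries, among 6110 other genes with a mean of at least 50. For *Dlk1* the closest gene was *Prune2* (0.42), and the third was *Mirg* (0.60), a noncoding RNA of the same *Dlk1*-*Dio3* cluster with 197, 37.8, 43.1 and 62.9 normalized counts in WT and 1.27, 21.5 and 87.4 in dyW. *Meg3* stood 124th from *Dlk1*, *Rian* 163rd and *Rtl1* 206th, all of the same cluster. Seen from *Meg3*, however, *Dlk1* stood 1962nd and *Rtl1* 451st, behind *Plagl1* (58th) and *H19* (188th), which lie on other chromosomes. *Meg3* was closest to *Hadhb* (0.41), and *Rian*, a further noncoding RNA of the cluster, stood 18th (0.64). *H19* was closest to *Rpn2* (0.14), while its neighbour *Igf2* stood 4971st (2.04), and *Igf2* was closest to *Rhobtb2* (0.36). These are descriptions over 7 libraries that share depth and cell content, and no test was made.

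Further lists, 4 in number, describe the surroundings of these genes. Of 47 other imprinted genes tested, 1 was called lower (*Slc22a2*) and 0 higher, against 18.7% and 0.0659% of all tested genes, with a median log2 fold change of -0.37 beside -1.99 for all tested genes. At an adjusted p under 0.05 with the same fold, 4 were lower and 2 higher, against 29.6% and 1% of all tested genes. Restricted to genes with a mean of at least 50, whose median was 0.20 and of which 2.45% were called lower, 0 were called in any of the 4 lists. The medians were then 0.29 for 24 other imprinted genes, 0.11 for 12 genes of the IGF axis, 0.22 for 9 partners and paralogs and 0.32 for 9 genes that maintain imprints. The most abundant were *Dcn*, a matrix proteoglycan (log2 fold change 1.29, adjusted p = 0.510), *Rian* (-0.42, 0.752), the noncoding RNA *Kcnq1ot1* that silences the *Cdkn1c* cluster (-0.22, 0.790) and the tetraspanin *Cd81* (1.06, 0.342), all by limma. *Airn*, the antisense RNA that silences paternal *Igf2r*, had 53.9 to 155 normalized counts in WT and 192 in each dyW library, with a log2 fold change of 0.99 and an adjusted p of 0.199 by limma. It was not called, and it was chosen here after its values were seen. Of 51 other imprinted genes found, 3 (*Airn*, *Impact* and *Asb4*) had every dyW library above every WT library, and 4 the reverse. Among tested genes these shares were 3.28% and 31.5%, and 12.2% and 6.81% with a mean of at least 50. *Impact* (log2 fold change 2.46, adjusted p = 0.0107 by limma) and *Asb4* (2.11, 0.0182) differed more than *Airn* and were not called either.

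Of 18 genes of the IGF axis, 2 were called lower and 0 higher (median log2 fold change -0.34), where 18.7% of all tested genes were called lower and 0.0659% higher. *Pappa2*, a protease that cuts IGF-binding proteins, had 21.3 to 56.6 normalized counts in WT and at most 0.195 in dyW. *Igfals*, which stabilizes IGF complexes in blood, had 10.7 to 16.4 in WT, from 2 to 8 reads, and 0 in all dyW libraries. The growth factor *Igf1* had 53.3 to 230 normalized counts in WT and 252, 1353 and 1489 in dyW, with an adjusted p of 0.0285 by limma and a log2 fold change of 2.70, and *Igfbp5* had at most 91.3 in WT and 152 to 810 in dyW, with an adjusted p of 0.0194. Neither reached the call. At an adjusted p under 0.05 with the same fold, 2 of the 18 genes were lower and 2 higher, against 29.6% and 1% of all tested genes. *Igfbp3* and *Igfbp4* had log2 fold changes of 0.39 and 0.89, with adjusted p of 0.770 and 0.440 by limma.

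Of 23 tested partners and paralogs of the members, 1 was called lower and 0 higher (median log2 fold change -0.55), against the same 18.7% and 0.0659%. *Jag2*, a Notch ligand, had 24.6 to 104 normalized counts in WT, from 8 to 33 reads, and 0 in each dyW library. With the deposited size factors it was at least 39.3-fold lower when the WT mean is set against 3 reads in the library labelled dyW3. That bound depends on the scaling. The Notch target *Hes1* had a log2 fold change of 1.75 (adjusted p = 0.0620 by limma), the receptors *Notch1* and *Notch2* -2.96 (0.195) and -0.55 (0.686), and *Cdkn1a*, a paralog of *Cdkn1c*, 1.21 (0.288). Of 12 genes that maintain imprints, 1 was called lower and 0 higher (median log2 fold change 0.09), again against 18.7% and 0.0659%. At an adjusted p under 0.05 with the same fold, 2 of the 12 were lower and 1 higher, against 29.6% and 1% of all tested genes. *Dppa3*, which protects maternal methylation in the zygote, had 4.10 to 21.3 normalized counts in WT, from 2 to 6 reads, and 0 in dyW. *Arid4b*, a chromatin regulator, had 75.9 to 123 in WT and 325 to 434 in dyW (log2 fold change 1.83, adjusted p = 0.0186 by limma), while *Smchd1*, *Dnmt3a* and *Zfp445* had log2 fold changes of -0.05, 0.23 and 0.68 with adjusted p of 0.952, 0.783 and 0.640.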

How the data were processed

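Muscle fibers of 7 fetuses, 4 WT and 3 dyW, were sequenced after SMART-seq2 amplification and Nextera XT library preparation. The authors trimmed reads with Cutadapt, mapped them with STAR to GRCm39, counted them per gene with FeatureCounts and deposited counts normalized in DESeq2, that is, read counts divided by 1 size factor per library. Versions and strand setting are not given in the sources used here. The deposited values are not raw counts, and a table of the authors' own fold changes and p-values was not used. Dividing each library by its step gave whole reads for 100% of values (tolerance 0.01). Total reads per library, given in the report, limit the precision of WT values most, where 1 read was worth 2.05 to 5.33 normalized counts.

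R 4.3.3 and its package limma 3.58.1 were used to fit log2(normalized count + 1) of genes averaging at least 5, by lmFit and a trended eBayes. Adjustment was by Benjamini-Hochberg over 25791 genes. Fold changes are on this scale, which understates changes of low genes. For the 3 ratios, p-values came from exact permutation (two-sided). Tables and plots used matplotlib 3.10.9, scipy 1.17.1, pandas 2.3.3 and numpy 2.4.6 in Python 3.11.15. Coordinates and exon lengths are from GENCODE M39 (99.2% of IDs matched), and promoter and microRNA sequences from RefSeq. The fit was run on simulated data as a check of the code. The 10 members and all lists were chosen with earlier results of these data known. Genes named are the members, *Lama2*, list genes that were called, the 4 most abundant genes of each list and the genes closest in profile to *Igf2*, *H19*, *Dlk1* and *Meg3*. *Airn*, *Impact*, *Asb4*, *Copg2*, *Rtl1*, the fibroblast and myofiber genes and the overlapping models were named outside this rule, after their values were seen. Labels name no batch and do not say whether fetuses shared litters, and p-values measure the spread between these libraries. Alternatives were other pseudocounts, filters, scalings and thresholds, a replicate block, each library left out and, chosen after seeing the data, voom and the fit without WT1 and dyW1.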

Additional observations from a re-analysis of the deposited data

Results flagged for a closer look

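Of 13 groups of WT values checked for a sample far from the others, 3 were marked, where chance marks about 1 in 20 of independent groups of normal values. The gene values checked were normalized counts rather than log2 values, and the groups share libraries. An excess over that rate is therefore not shown. *Plagl1* in WT1 was 2921 normalized counts, and the next highest WT library had 699. *Mest* in WT3 was 5684, and the next highest had 3204. The log2 *H19* to *Igf2* ratio in WT3 was 7.11, and the next highest was 3.82, with the *Igf2* value of WT3 resting on 10 reads.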

How the results depend on the processing

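No member was called higher in any alternative. The count called lower was 0 throughout, except 1 (*Mest*) without the library labelled dyW3 and 1 at an adjusted p under 0.05, and ranged from 0 to 1 with libraries left out. Of 190 member fold changes under alternatives 170 kept their sign and side of the threshold, 2 (both *Mest*) passed it and 18 changed sign. The alternatives that altered only the filter or the threshold leave each fold change as it is, so they could not change a sign. The signs of *Igf2*, *Plagl1* and *Mest* held in all. Quantile normalization turned *Igf2r* (-0.22), *Grb10* (-0.024) and *Meg3* (-0.56), scaling to the same total turned *Cdkn1c* (0.23) and *H19* (0.71), voom turned *H19* (0.76), recomputed size factors turned *Peg3* (-0.26) and *Meg3* (-0.33), and leaving out WT1 and dyW1 turned *Dlk1* (1.04). With libraries left out singly, *Dlk1* ranged from -2.92 to 0.51, *Cdkn1c* from -2.07 to 0.71, *Peg3* from -0.37 to 0.68, *H19* from -0.95 to -0.05, *Igf2* from -3.94 to -1.09, *Igf2r* from 0.31 to 1.08 and *Meg3* from -0.58 to 0.96. The cause of these changes was not tested. The *Igf2* to *Igf2r* difference stayed below 0, from -4.51 to -2.05 over its alternatives.

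Over the 4 lists, 5 genes were called lower. The count was 0 with a pseudocount of 10, a mean of at least 50, the same total, quantile normalization, the replicate block and without WT1 and dyW1, 10 at an adjusted p under 0.05, and 0 to 8 with libraries left out. Called higher were 0, against 2 with a pseudocount of 0.1 and 5 at an adjusted p under 0.05. Among all genes, 4830 were called lower and 17 higher. Lower calls were 0 with a pseudocount of 10, a mean of at least 50, the same total or without WT1 and dyW1, 3 after quantile normalization, 1 with the replicate block, 7625 at an adjusted p under 0.05, and 0 to 6698 with libraries left out. Higher calls ranged from 0 to 259, with 68 in voom and 41 with a pseudocount of 0.1. Over all tested genes, same-numbered libraries varied together little (correlations 0.15, -0.05 and -0.09). The labels name no pairing, and these correlations cannot exclude that the numbers pair some libraries. With the replicate block 0 members were called. The block takes WT4, which has no partner, out of the contrast, and *Peg3* was -0.30 both with the block and without WT4. The WT values of *Igf2* rest on 10 to 50 reads.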
